A study of Mus musculus with 24 samples.

Results

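The genes of cholesterol and lipid synthesis were followed through a series on mouse embryonic stem cells that carry a doxycycline-inducible transgene for DUX, a transcription factor of the early embryo. The 35 members were chosen by symbol, with earlier results of these data known. They were matched to the Ensembl gene IDs of the count tables, out of 55487 genes counted. They comprise 7 enzymes of the mevalonate pathway, 11 enzymes of the sterol branch, 5 genes of SREBP control, 5 genes of sterol transport and LXR signalling, and 7 genes of fatty acid and glyceride synthesis. All 35 passed the filter on low counts. The series title concerns how the homeobox factor DUXBL acts on the exit from the totipotent 2-cell-like state.

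The 24 RNA-seq libraries came from the KH2 line and fell into 12 groups of 2. The plain lines, wild type (WT) and DUXBL-KO, gave 8 libraries, and the lines titled pLV2 gave 16: WT line 1, WT line 2, TRIM24-KO and TRIM33-KO. Each line was sequenced without doxycycline (DOX) and after 16 h of it, and every line, the controls included, carried the DUX transgene. What pLV2 stands for is not given in the sources used here, and each knockout was sequenced as 1 numbered line. The cells were grown in serum and LIF on gelatin or on growth-arrested fibroblasts, so RNA of feeder cells could be present. Nothing states that the replicates of a group came from separate cultures, and p-values measure only the spread between these libraries, which may be technical.

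The labels were checked before the comparisons. Trim33 was at 20.3 and 21.4 CPM (read counts scaled to the effective library size) in the untreated libraries labelled TRIM33-KO, and at 115.5 to 140.0 CPM in the untreated WT pLV2 libraries. Trim24 was not lowered in the line labelled TRIM24-KO: it stood at 137 and 123 CPM without DOX, between WT line 1 (100.2 and 94.5 CPM) and WT line 2 (196 and 165 CPM). Duxbl1, the gene of DUXBL, had 16 and 6 reads in the untreated libraries labelled DUXBL-KO and 24 and 6 in WT, and 169 and 91 against 139 and 59 with DOX. These transcripts check neither label, and every direction below is that of the line as labelled. The treatment tag disagreed with the title in 8 pLV2 libraries, and titles were followed. The 6 genes of the 2-cell-like state summed to between 0.243 and 4.80 CPM in the 12 libraries titled without DOX and to between 709.6 and 6823 CPM in the 12 titled with it. The 8 pluripotency markers summed to between 2854 and 3551 CPM in every library. Gene counts ran from 11784696 to 19136869 per library. Of the 24 libraries 2 stood apart: the annotated rRNA gene CT010467.1 took 30.43% of gene counts in treated replicate 2 labelled TRIM24-KO and 12.85% in treated replicate 2 labelled TRIM33-KO, against at most 1.297% in the other 22. Results that rest on these libraries are given with and without them below, by member counts and for Dhcr7.

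Cells make cholesterol from acetyl-CoA through mevalonate, isoprenoids, squalene and lanosterol. When membrane sterol is scarce, the escort protein SCAP carries SREBP to the Golgi, where it is cleaved into a nuclear factor that switches on these enzymes and its own inhibitor INSIG1. When sterol is plentiful, oxysterols activate LXR, which switches on the exporters ABCA1 and ABCG1 and the gene for SREBP-1. SREBP-1 also drives fatty acid synthesis and desaturation. Dividing cells need this synthesis for new membranes.

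The windows upstream of the start sites of 4 members are printed because the results below turn on these genes: Hmgcs1 stands for the start of the pathway, Hsd17b7 and Dhcr7 for its late sterol steps, and Abca1 for export. Each is the 250 bases before a RefSeq start on assembly GRCm38.p6, 5′ to 3′ on the gene's own strand. Capitals mark CCAAT or ATTGG (the CCAAT box of NF-Y, a partner of SREBP), TCACNCCAC or GTGGNGTGA (a sterol-type element) and CACGTG (an E-box). The windows lie at chr13:119690101-119690350 on the plus strand, chr1:169969206-169969455 on the minus strand, chr7:143829964-143830213 on the plus strand and chr4:53159896-53160145 on the minus strand, in the order shown.
Hmgcs1: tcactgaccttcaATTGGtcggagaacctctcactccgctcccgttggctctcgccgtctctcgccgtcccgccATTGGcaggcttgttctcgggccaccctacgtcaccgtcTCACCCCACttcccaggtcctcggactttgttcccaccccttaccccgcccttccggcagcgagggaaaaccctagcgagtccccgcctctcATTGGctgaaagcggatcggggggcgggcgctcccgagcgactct
Hsd17b7: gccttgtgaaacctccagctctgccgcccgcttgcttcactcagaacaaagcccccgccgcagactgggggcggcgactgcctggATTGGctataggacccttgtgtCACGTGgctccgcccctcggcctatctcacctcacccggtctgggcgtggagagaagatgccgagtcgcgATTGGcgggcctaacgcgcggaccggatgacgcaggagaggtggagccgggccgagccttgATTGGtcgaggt
Dhcr7: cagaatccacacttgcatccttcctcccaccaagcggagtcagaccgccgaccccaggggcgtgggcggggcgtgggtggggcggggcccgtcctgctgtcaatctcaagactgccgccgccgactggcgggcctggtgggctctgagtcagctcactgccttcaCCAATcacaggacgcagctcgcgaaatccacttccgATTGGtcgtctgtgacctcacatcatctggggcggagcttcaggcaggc
Abca1: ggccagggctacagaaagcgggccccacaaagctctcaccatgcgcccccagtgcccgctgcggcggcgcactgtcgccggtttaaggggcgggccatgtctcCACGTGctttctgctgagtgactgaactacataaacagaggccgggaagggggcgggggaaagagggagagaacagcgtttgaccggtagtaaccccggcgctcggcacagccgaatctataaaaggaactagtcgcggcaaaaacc
In these windows Hmgcs1 held 3 CCAAT matches and 1 sterol-type element, Hsd17b7 held 3 CCAAT matches and 1 E-box, Dhcr7 held 2 CCAAT matches, and Abca1 held 1 E-box and no CCAAT. The marked runs do not overlap each other. Dhcr7 has 3 RefSeq starts, and the window of the third was chosen for its CCAAT matches, so its count says nothing more. The first held none of these motifs, and the window of start 2 held 1 E-box and no CCAAT.

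Across all members with an entry, the CCAAT box was common. RefSeq windows of 300 bases, from 250 before to 50 after the start, were matched for 27 members. CCAAT or ATTGG lay in a window of 20 of them (74.1%), against 41.1% of all 27025 genes and 37.4% of all 32851 windows. TCACNCCAC or GTGGNGTGA lay in 1 member, Hmgcs1, and in 1.44% of all genes and 1.24% of windows. CACGTG lay in 6 members (22.2%), and in 8.09% of genes and 7.15% of windows. A match is only a run of letters, and nothing about binding follows from it or from its absence.

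Levels per length of transcript differed widely among the members. In the untreated plain WT libraries, the mean CPM per kilobase of exon was highest for Scd2 at 134, a stearoyl-CoA desaturase, followed by Acly at 109.8, which makes cytosolic acetyl-CoA, Fasn at 91.99, the fatty acid synthase, and Hmgcs1 at 55.9, the enzyme that makes HMG-CoA. At the other end stood the exporter genes Abca1 at 1.20 and Abcg1 at 2.81, the sterol reductase gene Tm7sf2 at 2.204, and Hsd17b7 at 3.36, which encodes a keto-reductase of the sterol ring. On the same scale Srebf2, the gene for the SREBP of cholesterol synthesis, was at 34.2 and Srebf1 at 15.7. The strand setting of the counting is not given in the sources used here, so some reads are of uncertain origin for the 18 members that overlap another annotated gene. The overlapping genes with at least 100 reads in every library were Gm20388 (at Mvd), Gm43738 (Fdps), Ctsb (Fdft1), Akap9 (Cyp51), Vps51 (Tm7sf2), Rai1 (Srebf1), Rmc1 (Npc1) and Mir5114 (Scd2). Dhcr7, Hsd17b7, Abca1, Scd1 and Lpin1 overlap no annotated gene.

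**Figure D1:**
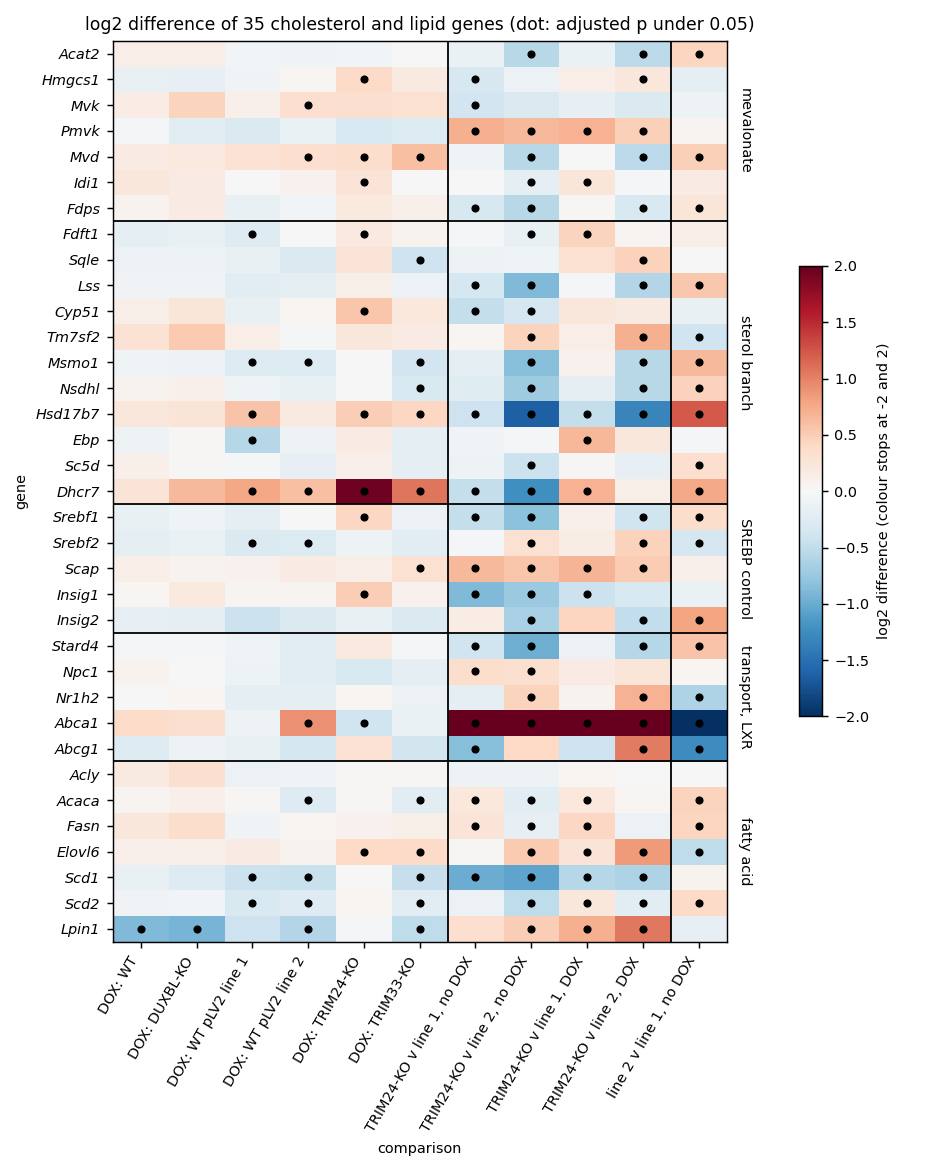
Log2 difference of the 35 members (rows, in 5 role groups) in 6 DOX comparisons, 4 comparisons of the line labelled TRIM24-KO with a WT pLV2 line, and 1 comparison of both WT pLV2 lines (columns). Colour gives the log2 difference and stops at -2 and 2, and a dot marks an adjusted p under 0.05; Dhcr7 carries a dot under DOX in all 4 pLV2 lines, and Abca1 is past the end of the colour scale in the 5 comparisons between lines.

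In the plain lines DOX changed 1 member in the fit with 1 mean per group. This was Lpin1, which encodes lipin 1, a phosphatidate phosphatase of glyceride synthesis. Its WT libraries stood at 49.97 and 53.7 CPM without DOX and at 25.1 and 31.2 CPM with it. The values in the line labelled DUXBL-KO were 46.2 and 49.0 CPM against 27.1 and 22.7 CPM. The treated libraries lay below the untreated ones in both lines. With edgeR's quasi-likelihood test and Benjamini-Hochberg adjustment over all genes, Lpin1 fell in WT (log2 difference -0.88 ± 0.14, SE, n = 2 against 2, adjusted p = 0.0223) and in the line labelled DUXBL-KO (-0.93 ± 0.14, adjusted p = 0.0112). The WT call ended without untreated replicate 1 (adjusted p = 0.116 by edgeR), untreated replicate 2 (0.197) or treated replicate 1 (0.137), and with only the 2 groups compared in the fit (0.0778). In the line labelled DUXBL-KO it was 0.0509 and 0.0683 without untreated replicate 1 or 2, and 0.0799 without treated replicate 2.

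The other 34 members did not pass the test in either plain line in the fit with 1 mean per group. Among all 18060 genes tested, 2.82% rose and 0.105% fell with DOX in WT, and 4.50% rose and 0.404% fell in the line labelled DUXBL-KO. This background depended on the fit: with only the groups compared, 1 gene rose and 0 fell of 16931 tested in WT, and 727 rose and 12 fell of 17296 in the line labelled DUXBL-KO. With the replicate number added as a block, 818 genes rose and 143 fell in WT, and 1247 and 347 in the line labelled DUXBL-KO. With that block 0 members rose and 1 fell in WT. In the line labelled DUXBL-KO 4 rose, Dhcr7 among them, and 1 fell. Deviations of libraries with the same replicate number correlated across genes at 0.58 in WT and 0.79 in the line labelled DUXBL-KO. In the fit with 1 mean per group no member rose by edgeR. In that fit 1 member in WT and 4 in the line labelled DUXBL-KO had an unadjusted p under 0.05 in either direction. DESeq2 called 1 member in WT and 2 in the line labelled DUXBL-KO. The members' median log2 difference was 0.05 in WT and 0.04 in the line labelled DUXBL-KO, beside -0.01 and -0.0056 over all genes tested. Dhcr7, which encodes the reductase that turns 7-dehydrocholesterol into cholesterol, went from 61.8 and 56.2 CPM to 97.8 and 86.3 CPM in the line labelled DUXBL-KO, a log2 difference of 0.64 ± 0.15 with an adjusted p of 0.0592 by edgeR and 0.0128 by DESeq2. Without a filter on low counts Dhcr7 passed there (adjusted p = 0.000344 by edgeR), as did Fasn (0.0217). In plain WT Dhcr7 went from 71.8 and 60.8 to 88.1 and 69.5 CPM, with overlapping libraries. No member differed in its DOX response between the plain lines by edgeR's interaction test (0 at an unadjusted p under 0.05, and 0 by DESeq2), where 0% of all genes passed and 98 had an unadjusted p under 0.05.

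In the pLV2 lines the sterol enzymes responded unevenly, and Dhcr7 rose with DOX in all 4. It went from 50.2 and 52.0 to 82.1 and 93.4 CPM in WT line 1, and from 77.0 and 96.0 to 121 and 139 CPM in WT line 2. The line labelled TRIM24-KO went from 35.6 and 38.0 to 134 and 149.8 CPM. That labelled TRIM33-KO went from 73.2 and 75.6 to 153 and 159.8 CPM. The treated libraries were above the untreated ones in every pLV2 line, and the untreated libraries labelled TRIM24-KO were the lowest of the 24. The log2 differences by edgeR were 0.78 ± 0.10 in WT line 1 (adjusted p = 2.28e-05), 0.60 ± 0.10 in WT line 2 (adjusted p = 0.000176), 1.94 ± 0.10 or 3.84-fold in the line labelled TRIM24-KO (adjusted p = 1.73e-10) and 1.07 ± 0.10 in the line labelled TRIM33-KO (adjusted p = 1.53e-07). Each of these 4 calls held when any 1 library was left out and under the other alternatives run. The gene lies at chr7:143823145-143848410 on the plus strand (GRCm38, GENCODE M21). In bulk RNA, fewer cells that express a gene and less RNA per cell cannot be told apart, here and below.

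Hsd17b7, which acts before Dhcr7 on the sterol ring, rose in 3 of the 4 pLV2 lines. WT line 1 went from 11.9 and 11.7 to 17.4 and 17.5 CPM (log2 difference 0.57 ± 0.13, adjusted p = 0.00620 by edgeR). The line labelled TRIM24-KO went from 9.43 and 8.30 to 12.3 and 12.8 CPM (0.50 ± 0.14, adjusted p = 0.0251), and the line labelled TRIM33-KO from 22.2 and 25.6 to 30.8 and 33.1 CPM (0.42 ± 0.12, adjusted p = 0.0101). In WT line 2 the untreated values of 29.8 and 25.0 CPM overlapped the treated ones of 34.1 and 28.4 CPM, and the difference of 0.19 ± 0.11 did not pass the test. In plain WT the gene went from 17.0 and 17.3 to 21.4 and 18.5 CPM and in the line labelled DUXBL-KO from 16.8 and 17.1 to 19.5 and 21.03 CPM, without passing. The call in WT line 1 held without any 1 library. In the line labelled TRIM24-KO it ended without untreated replicate 2 (adjusted p = 0.199), treated replicate 1 (0.0859) or treated replicate 2 (0.109), with DESeq2 (0.0763) and with only the groups compared (0.0758), and in the line labelled TRIM33-KO without untreated replicate 1 (0.0908).

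The other mevalonate and sterol-branch enzymes are given line by line. Of these 16, only Fdft1 passed an interaction test between lines, as described below. This holds for edgeR with all libraries, TMM scaling, the filter on low counts and 1 mean per group. With DOX, 3 of 7 mevalonate enzymes rose in the line labelled TRIM24-KO (Hmgcs1, Mvd and Idi1), as did 4 of 11 of the sterol branch (Fdft1, Cyp51, Hsd17b7 and Dhcr7), and no enzyme of either list fell. Among all genes tested 11.5% rose and 4.94% fell in that line. Cyp51, the lanosterol demethylase, went from 45.2 and 46.6 to 67.1 and 68.5 CPM there (log2 difference 0.56 ± 0.11, adjusted p = 0.00169 by edgeR), and Hmgcs1 from 159 and 156 to 196 and 215 CPM (0.38 ± 0.08, adjusted p = 0.00266). The treated libraries lay above the untreated ones for both genes, and both calls held without any 1 library, whereas those of Mvd, Idi1 and Fdft1 each ended without at least 1, with DESeq2 and with only the groups compared. In WT line 1, no mevalonate enzyme passed by edgeR (1 at an unadjusted p under 0.05; Mvd passed with RLE size factors, adjusted p = 0.0483, without a filter, 0.0299, and with only the groups compared, 0.00443), and in the sterol branch Hsd17b7 and Dhcr7 rose while Fdft1, Msmo1 and Ebp fell, with log2 differences of -0.26, -0.27 and -0.57 that each ended as calls without at least 1 library. In WT line 2, Mvk, Mvd and Dhcr7 rose and Msmo1, a sterol methyl oxidase, fell. The Mvk call there ended without any 1 of the 4 libraries and with DESeq2 (adjusted p = 0.0985), that of Mvd without either replicate 1, and that of Msmo1 without either replicate 2, with DESeq2 (0.122) and with only the groups compared (0.147). Mvd, a decarboxylase, rose in the line labelled TRIM33-KO from 37.6 and 34.8 to 51.9 and 57.9 CPM (0.60 ± 0.10, adjusted p = 0.000119 by edgeR), while Sqle, the squalene epoxidase, Msmo1 and Nsdhl, a sterol dehydrogenase, fell, with log2 differences of -0.41, -0.38 and -0.30. The Sqle and Nsdhl calls each ended without 3 of the 4 libraries, and that of Nsdhl also with RLE size factors (adjusted p = 0.129 by edgeR), DESeq2 (0.294) and only the groups compared (0.188). Msmo1 thus fell in 3 of the 4 pLV2 lines and differed by 0.01 ± 0.08 in the line labelled TRIM24-KO, where the interaction tests against WT line 1 (adjusted p = 0.619 by edgeR) and WT line 2 (adjusted p = 0.374) did not pass.

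**Figure D2:**
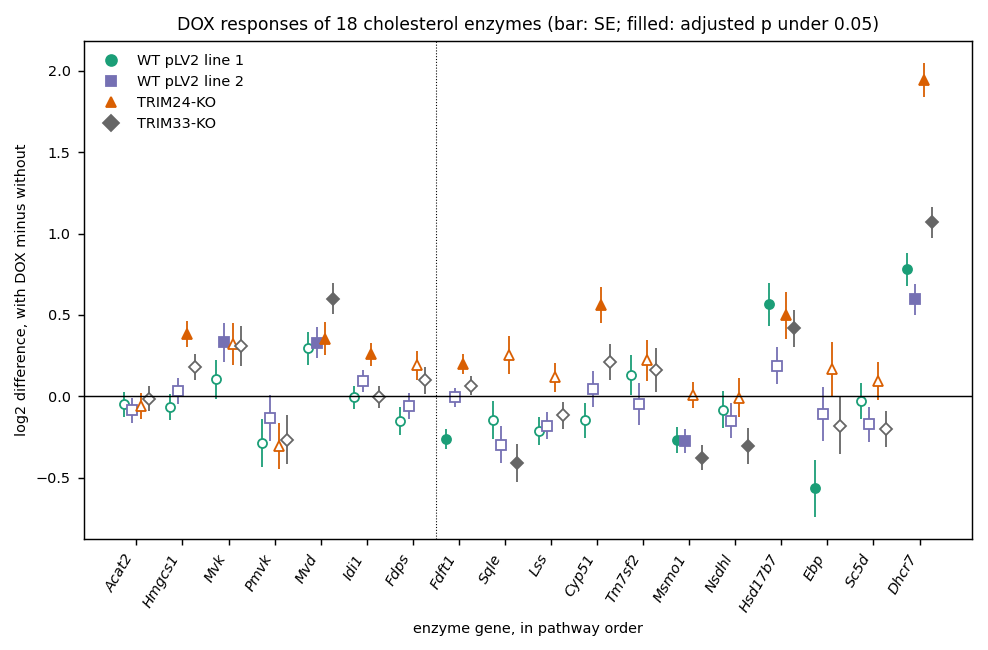
DOX response (vertical axis, log2 difference, with minus without DOX) of the 7 mevalonate enzymes, left of the dotted line, and the 11 sterol-branch enzymes, right of it, in the 4 pLV2 lines. Points are estimates with their SE and filled points have an adjusted p under 0.05; Dhcr7 reaches 1.94 in the line labelled TRIM24-KO, while the lowest point is Ebp in WT line 1 at -0.57.

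Of the 5 genes of SREBP control, 1 fell with DOX in WT line 1 and 1 in WT line 2 by edgeR. In the line labelled TRIM24-KO 2 rose, and in that labelled TRIM33-KO 1 rose. Among all genes tested 6.25% fell in WT line 1 and 14.0% in WT line 2. The all-gene shares that rose were 11.5% in the line labelled TRIM24-KO and 16.5% in that labelled TRIM33-KO. Srebf2 fell in WT line 1 from 257 and 246 to 199 and 214 CPM (log2 difference -0.28 ± 0.09, adjusted p = 0.0442 by edgeR) and in WT line 2 from 186 and 214 to 154 and 177 CPM (-0.27 ± 0.09, adjusted p = 0.0367). The treated libraries lay below the untreated ones in both lines. The call in WT line 1 ended without any 1 of its 4 libraries, with adjusted p from 0.0925 to 0.362, and with RLE size factors (0.0561). That in WT line 2 ended without untreated replicate 2 (0.433) or treated replicate 1 (0.299), with RLE size factors (0.102), with DESeq2 (0.106) and with only the groups compared (0.235). Srebf1 rose in the line labelled TRIM24-KO from 54.8 and 55.6 to 72.7 and 74.2 CPM (0.41 ± 0.08, adjusted p = 0.000977 by edgeR). Insig1, the inhibitor that SREBP itself switches on, rose there from 49.4 and 50.4 to 67.8 and 73.5 CPM (0.50 ± 0.13, adjusted p = 0.0106). The Srebf1 call held without any 1 library, and that of Insig1 ended without untreated replicate 1 (0.0627), untreated replicate 2 (0.0699) or treated replicate 2 (0.0801). Scap, the escort of SREBP, rose by 0.30 ± 0.11 in the line labelled TRIM33-KO (adjusted p = 0.0327 by edgeR), a call that ended without untreated replicate 1 (0.187) or treated replicate 2 (0.114), and without a filter on low counts (0.0784). Insig2 did not pass in the DOX comparisons by edgeR with TMM scaling and 1 mean per group.

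Of the transport genes Abca1 passed a DOX test by edgeR with TMM scaling. It rose in WT line 2 from 1.79 and 1.78 to 2.90 and 3.80 CPM, and fell in the line labelled TRIM24-KO from 105 and 83.5 to 79.4 and 62.5 CPM. Treated and untreated libraries did not overlap in either line. The log2 differences by edgeR were 0.91 ± 0.25 (adjusted p = 0.0123) and -0.40 ± 0.12 (adjusted p = 0.0272). The rise ended without untreated replicate 1 (adjusted p = 0.0590) or treated replicate 2 (0.134), and the fall without untreated replicate 1 (0.332) or treated replicate 2 (0.282) and with only the groups compared (0.0928). The difference between these responses was -1.31 ± 0.28 with an adjusted p of 0.0512 by edgeR and 0.00363 by DESeq2. It also passed by edgeR with RLE size factors (adjusted p = 0.0447) and without a filter (4.58e-05). In the remaining treated libraries Abca1 stood at 13.9 and 18.2 CPM in plain WT, 12.2 and 9.01 CPM in the line labelled DUXBL-KO, 9.21 and 9.08 CPM in WT line 1 and 10.0 and 9.97 CPM in the line labelled TRIM33-KO. Stard4, a sterol carrier, Npc1, which exports cholesterol from lysosomes, Nr1h2, which encodes LXR beta, and Abcg1 did not pass in the 6 DOX comparisons at these settings. Npc1 went from 69.8 and 69.0 to 56.2 and 56.4 CPM in the line labelled TRIM24-KO, without overlap, with a log2 difference of -0.30 ± 0.10 and an adjusted p of 0.0542 by edgeR. It passed there with RLE size factors (adjusted p = 0.0420), without a filter (0.00541) and with only the groups compared (0.0341).

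Of the 7 fatty acid genes, several were called as falling in the 2 WT pLV2 lines and in the line labelled TRIM33-KO, and most of these calls depended on the fit. With only the groups compared, those in WT line 2 ended for Acaca (adjusted p = 0.107 by edgeR), Scd1 (0.128), Scd2 (0.265) and Lpin1 (0.0746), and those in the line labelled TRIM33-KO ended for Acaca (0.198), Scd2 (0.265) and Lpin1 (0.0540). In the interaction tests of the line labelled TRIM24-KO against WT line 1 and WT line 2, 0 of the 7 passed by edgeR (3 and 5 at an unadjusted p under 0.05) or by DESeq2. Of all 18079 genes, 0.199% and 0.360% passed by edgeR, and 1273 and 1771 had an unadjusted p under 0.05. All 7 differences were positive against each line, with medians of 0.24 and 0.30, beside 0.03 and 0.06 over all genes. Scd1, a stearoyl-CoA desaturase, went from 210.4 and 198 to 149.8 and 153 CPM in WT line 1, from 187 and 242 to 139 and 174 CPM in WT line 2, and from 229 and 216 to 157 and 167 CPM in the line labelled TRIM33-KO. The line labelled TRIM24-KO had 97.4 and 108 CPM of Scd1 without DOX and 96.6 and 108 CPM with it. In the plain lines it went from 169 and 139 to 140.0 and 138 CPM in WT and from 195 and 171 to 156 and 151 CPM in the line labelled DUXBL-KO, without passing. Among the pLV2 lines, the treated libraries lay below the untreated ones in the first 3 named and overlapped them in the line labelled TRIM24-KO. The log2 differences by edgeR were -0.43 ± 0.11 (adjusted p = 0.0119), -0.45 ± 0.11 (adjusted p = 0.00583), -0.46 ± 0.11 (adjusted p = 0.00355) and -0.01 ± 0.11 (adjusted p = 0.973) in that order. Leaving out any 1 of the 4 libraries ended the call in WT line 1, with adjusted p from 0.0649 to 0.152. In WT line 2 it ended without untreated replicate 2 (0.179) or treated replicate 1 (0.103) as well as with only the groups compared, and in the line labelled TRIM33-KO it held. Scd2 fell in the same 3 lines, with log2 differences of -0.31, -0.26 and -0.22 and calls that each ended without at least 1 library. With RLE size factors the Scd2 calls in WT line 2 (0.0689) and in the line labelled TRIM33-KO (0.148) ended as well. The interaction tests of Scd1 between the line labelled TRIM24-KO and WT line 1 (adjusted p = 0.539 by edgeR) or WT line 2 (adjusted p = 0.331) did not pass.

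Lpin1 fell in WT line 2 from 30.6 and 43.1 to 23.5 and 25.1 CPM and in the line labelled TRIM33-KO from 33.6 and 32.1 to 18.8 and 27.9 CPM. In WT line 1 it went from 42.4 and 39.8 to 32.6 and 29.1 CPM without passing the test (log2 difference -0.41 ± 0.15, adjusted p = 0.0743 by edgeR), and it passed there without a filter (0.00649) and with only the groups compared (0.00213). The line labelled TRIM24-KO had 50.3 and 53.3 CPM without DOX and 48.3 and 52.9 CPM with it, which overlap. The differences in WT line 2 and in the line labelled TRIM33-KO were -0.59 ± 0.15 (adjusted p = 0.00855 by edgeR) and -0.50 ± 0.16 (adjusted p = 0.0196). The first ended without untreated replicate 2 (0.193) or treated replicate 1 (0.0672), the other without untreated replicate 1 (0.0910), untreated replicate 2 (0.0564) or treated replicate 1 (0.337), and both with only the groups compared. Elovl6, a fatty acid elongase, rose in the lines labelled TRIM24-KO (0.40 ± 0.06, adjusted p = 0.000102 by edgeR) and TRIM33-KO (0.38 ± 0.06, adjusted p = 0.000103), and both calls held without any 1 library. Acly and Fasn passed in no DOX comparison of the pLV2 lines by edgeR with TMM scaling. Fasn passed in the line labelled TRIM33-KO with RLE size factors (adjusted p = 0.0424 by edgeR) and with DESeq2 (0.0178).

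Counted over the list, DOX raised 2 and lowered 6 members in WT line 1, raised 4 and lowered 6 in WT line 2, raised 10 and lowered 1 in the line labelled TRIM24-KO, and raised 5 and lowered 7 in the line labelled TRIM33-KO. Over all 18079 genes tested, 10.0% rose and 6.25% fell in WT line 1, 12.7% and 14.0% in WT line 2, 11.5% and 4.94% in the line labelled TRIM24-KO, and 16.5% and 20.1% in the line labelled TRIM33-KO. Against these the members' shares in WT line 2 and in the line labelled TRIM33-KO were near the background. The members' median log2 difference was -0.11, -0.09, 0.13 and -0.11 in the 4 lines, beside -0.03, -0.07, -0.0028 and -0.09 over all genes. It turned to 0.021 in WT line 2 without untreated replicate 2, and to 0.017 in the line labelled TRIM33-KO without treated replicate 2, which is rich in CT010467.1. In WT line 1 the 8 members called became 2 without untreated replicate 1 and 3 without any other library, and in WT line 2 the 10 became 6 without untreated replicate 2 and 3 without treated replicate 1. In the line labelled TRIM24-KO the 11 became 6 without replicate 2 of either treatment, and in the line labelled TRIM33-KO the 12 became 7 without replicate 1 of either treatment. Without the treated libraries rich in CT010467.1, 6 rose and 0 fell in the line labelled TRIM24-KO, and 6 rose and 3 fell in that labelled TRIM33-KO. The balance of members depended on the settings: in the line labelled TRIM33-KO 8 rose and 4 fell with RLE size factors, 7 and 4 with DESeq2, and 8 and 3 with only the groups compared. In WT line 2 the counts were 4 and 4 with RLE size factors, 3 and 4 with DESeq2, and 4 and 0 with only the groups compared. The share of rises among all genes called moved with the scaling, from 47.6% to 59.6% with RLE size factors in WT line 2 and from 45.0% to 56.7% in the line labelled TRIM33-KO. With DESeq2, which also changes the test and the genes tested, it was 65.9% and 63.2%. With only the groups compared it was 72.7% in WT line 2, where 1982 genes rose and 743 fell, and 60.3% in the line labelled TRIM33-KO, where 3557 rose and 2342 fell. Of the 35 members, 13 passed in none of the 6 DOX comparisons, 10 in 1, 5 in 2, 5 in 3 and 2, Dhcr7 and Lpin1, in 4. Of 10 fibroblast markers, 2 to 4 were at 0 in each group of the pLV2 lines. Their summed level ran from 28.9 to 53.6 CPM in untreated and from 42.8 to 65.7 CPM in treated pLV2 libraries, with 2 of the 6 tested rising in 3 of the lines and 3 in the line labelled TRIM33-KO. Of the 7 trophoblast markers tested, 1 fell in WT line 1, 3 in WT line 2, 0 in the line labelled TRIM24-KO and 3 in that labelled TRIM33-KO. The 8 trophoblast markers summed to 85.4 and 88.1 CPM without and 54.0 and 61.2 CPM with DOX in WT line 2, to 74.9 and 80.0 against 38.8 and 51.1 CPM in the line labelled TRIM33-KO, and to 47.8 and 52.1 against 49.4 and 53.5 CPM in that labelled TRIM24-KO. Of the 8 pluripotency markers, 2 rose and 1 fell in WT line 1, 1 and 3 in WT line 2, 0 and 3 in the line labelled TRIM24-KO, and 1 and 3 in that labelled TRIM33-KO. The part of these 3 lists in the results was not tested.

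Dhcr7 also differed between lines in the size of its DOX response. The response in the line labelled TRIM24-KO exceeded that of WT line 1 by 1.16 ± 0.14 on the log2 scale (adjusted p = 0.00238 by edgeR) and that of WT line 2 by 1.35 ± 0.14 (adjusted p = 0.000237), and both calls held under every alternative run, each library left out in turn included. Without the treated TRIM24-KO library rich in CT010467.1 they were 1.06 ± 0.16 (adjusted p = 0.0156 by edgeR) and 1.20 ± 0.15 (adjusted p = 0.00176), and the DOX response itself was 1.87 ± 0.12 (adjusted p = 1.61e-09). Fdft1, the squalene synthase, exceeded WT line 1 by 0.46 ± 0.09 (adjusted p = 0.0311 by edgeR) and Srebf1 by 0.58 ± 0.11 (adjusted p = 0.0301). The Fdft1 call ended without any 1 library except untreated TRIM24-KO replicate 1, with adjusted p up to 0.474, and that of Srebf1 without any of the 8, with adjusted p up to 0.449. In all, 3 members passed against WT line 1, where 0.199% of all genes did, and 1 against WT line 2, where 0.360% did. With RLE size factors 1 member passed against WT line 1, Dhcr7. The share of positive differences among genes that passed against WT line 2 moved from 69.2% to 48.1% with RLE size factors and 52.3% with DESeq2. The line labelled TRIM33-KO gave 0 members against WT line 1 by edgeR (6 at an unadjusted p under 0.05, 1 by DESeq2), with 1.62% of all genes passing, of which 67.1% were positive, 81.0% with RLE size factors and 84.1% with DESeq2. Against WT line 2 it gave 0 members by edgeR (3 at an unadjusted p under 0.05, 0 by DESeq2), with 0% of all genes passing and 831 at an unadjusted p under 0.05. The WT lines differed from each other at 0 members by edgeR (4 at an unadjusted p under 0.05, 0 by DESeq2), with 0.238% of all genes passing.

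**Figure D3:**
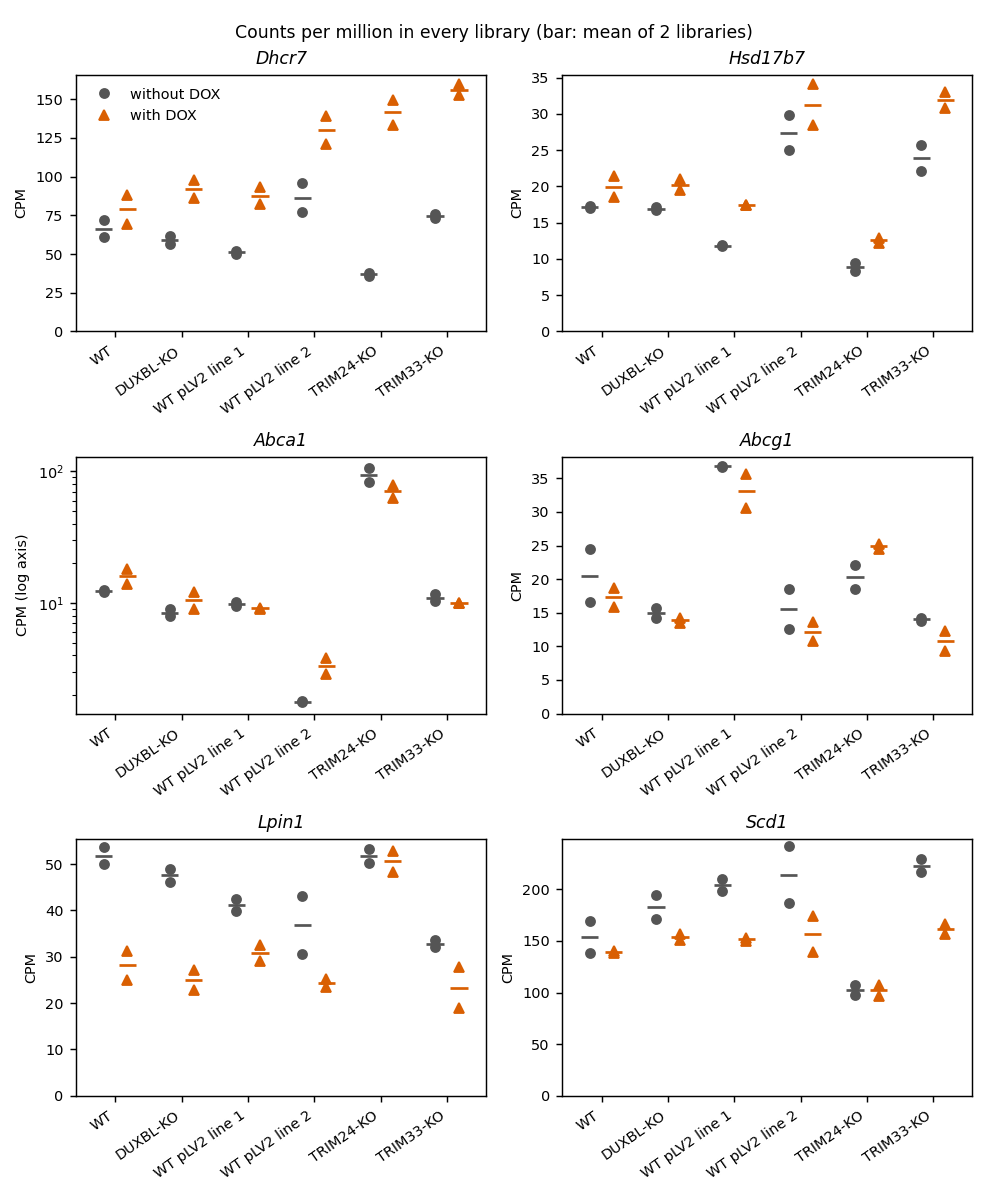
CPM of Dhcr7, Hsd17b7, Abca1, Abcg1, Lpin1 and Scd1 (vertical axes, from 0 except for Abca1, which has a log axis) in every library of the 6 lines, without DOX (grey circles) and with DOX (orange triangles), with bars at the mean of 2 libraries. Abca1 stands between 62.5 and 105 CPM in the line labelled TRIM24-KO and at or below 18.2 CPM in all other libraries.

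Without DOX, the line labelled TRIM24-KO differed from both WT pLV2 lines most in Abca1, the exporter that loads cholesterol onto apolipoproteins. The gene stood at 105 and 83.5 CPM there, at 9.47 and 10.1 CPM in WT line 1 and at 1.79 and 1.78 CPM in WT line 2. The other untreated libraries stood at 12.2 and 12.6 CPM in plain WT, 8.94 and 8.02 CPM in the line labelled DUXBL-KO and 10.4 and 11.6 CPM in the line labelled TRIM33-KO. No untreated library of another line came near those labelled TRIM24-KO. The log2 difference was 3.27 ± 0.14 or 9.63-fold against WT line 1 (adjusted p = 5.08e-11 by edgeR) and 5.72 ± 0.17 or 52.6-fold against WT line 2 (adjusted p = 9.86e-13), and both calls held without any 1 library. WT line 2 had the lowest level of the untreated lines, and the larger of these differences rests on that low level. The WT lines also differed from each other, by -2.45 ± 0.20 for line 2 against line 1 (adjusted p = 1.45e-07 by edgeR). Abca1 lies at chr4:53030787-53159895 on the minus strand (GRCm38). Its promoter window, printed above, held no CCAAT.

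Abcg1, the other LXR-driven exporter, was lower than in WT line 1 and did not pass the test against WT line 2 without DOX. It stood at 18.6 and 22.1 CPM in the untreated line labelled TRIM24-KO, at 36.8 and 36.7 CPM in WT line 1 and at 12.6 and 18.6 CPM in WT line 2. Untreated plain WT had 16.6 and 24.4 CPM, the line labelled DUXBL-KO 14.2 and 15.7 CPM and the line labelled TRIM33-KO 14.2 and 13.8 CPM. The line labelled TRIM24-KO was below both libraries of line 1 and overlapped those of line 2, whose higher library was at 18.57 CPM beside 18.56 CPM. The log2 difference was -0.85 ± 0.15 against WT line 1 (adjusted p = 0.000412 by edgeR) and 0.40 ± 0.16 against WT line 2 (adjusted p = 0.0530). Srebf1, also an LXR target, was at 54.8 and 55.6 CPM in the line labelled TRIM24-KO against 76.0 and 78.2 CPM in WT line 1 and 89.9 and 106 CPM in WT line 2. It was lower than in both (-0.48 ± 0.07, adjusted p = 0.000106 by edgeR, and -0.83 ± 0.07, adjusted p = 1.07e-07). Npc1 was higher than in both, with log2 differences of 0.35 ± 0.10 and 0.32 ± 0.10, calls that ended without at least 1 library. Nr1h2 was higher than in WT line 2 (0.45 ± 0.11) and Stard4 lower than in both (-0.40 ± 0.10 and -0.98 ± 0.10). The Stard4 call against WT line 1 ended without WT replicate 1 (adjusted p = 0.140 by edgeR) or TRIM24-KO replicate 2 (0.0713).

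Without DOX, more enzymes of cholesterol synthesis were lower than higher in the line labelled TRIM24-KO. Against WT line 1, 3 of 7 mevalonate and 4 of 11 sterol-branch enzymes were lower and 1 and 0 higher; against WT line 2, 4 and 8 were lower and 1 and 1 higher. Among all genes tested 17.5% were lower and 16.5% higher than in WT line 1, and 25.3% lower and 22.8% higher than in WT line 2. Against WT line 1 the enzymes lower were 1 and 1 without WT replicate 1, 0 and 3 without WT replicate 2, and 0 and 2 without TRIM24-KO replicate 2. The calls of Idi1 and Fdft1 against WT line 2 ended with RLE size factors, with DESeq2, without a filter and with only the groups compared. Fdps, Lss, Cyp51, Hsd17b7 and Dhcr7 were lower than in both lines. Dhcr7 was at 35.6 and 38.0 CPM against 50.2 and 52.0 CPM in WT line 1 (-0.47 ± 0.10, adjusted p = 0.00215 by edgeR) and 77.0 and 96.0 CPM in WT line 2 (-1.23 ± 0.10, adjusted p = 4.48e-08), and both calls held without any 1 library. Hsd17b7 was at 9.43 and 8.30 CPM against 11.9 and 11.7 CPM in WT line 1 (-0.41 ± 0.14, adjusted p = 0.0287 by edgeR) and 29.8 and 25.0 CPM in WT line 2 (-1.63 ± 0.13, adjusted p = 2.11e-08). The call against WT line 1 ended without WT replicate 1 (adjusted p = 0.176), WT replicate 2 (0.155) or TRIM24-KO replicate 2 (0.296), with DESeq2 (0.101) and without a filter (0.0871). Lss, the lanosterol synthase, differed by -0.35 ± 0.09 and -0.89 ± 0.08, and the calls against WT line 1 for Fdps, Lss and Cyp51 also ended without at least 1 library, as did that of Cyp51 against WT line 2, which also ended with only the groups compared (0.0747). Acat2, the acetyl-CoA acetyltransferase, and Sc5d, a sterol desaturase, were lower than in WT line 2 (-0.55 ± 0.08 and -0.43 ± 0.11) and did not pass against WT line 1. Pmvk, the phosphomevalonate kinase, was the enzyme higher than in both lines, at 36.9 and 31.7 CPM against 22.0 and 19.9 CPM and 23.1 and 20.6 CPM (0.71 ± 0.14 and 0.65 ± 0.14).

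In SREBP control, Insig1 was lower than in both WT lines, at 49.4 and 50.4 CPM against 91.1 and 91.96 CPM in WT line 1 and 70.03 and 97.2 CPM in WT line 2. The log2 differences were -0.88 ± 0.12 (adjusted p = 3.38e-05 by edgeR) and -0.74 ± 0.12 (adjusted p = 8.00e-05). Scap was higher than in both, at 45.4 and 43.0 CPM against 28.3 and 28.3 CPM and 33.1 and 27.2 CPM (0.64 ± 0.10, adjusted p = 0.000129 by edgeR, and 0.55 ± 0.10, adjusted p = 0.000240). All 4 calls held without any 1 library, and for both genes the libraries labelled TRIM24-KO did not overlap those of either WT line. Srebf2 was at 247 and 246 CPM, beside 257 and 246 CPM in WT line 1, and higher than the 186 and 214 CPM of WT line 2 by 0.30 ± 0.09.

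Among the fatty acid genes Scd1 was lower than in both WT lines, at 97.4 and 108 CPM against 210.4 and 198 CPM in WT line 1 and 187 and 242 CPM in WT line 2. The log2 differences were -0.99 ± 0.11 (adjusted p = 3.54e-06 by edgeR) and -1.06 ± 0.11 (adjusted p = 6.86e-07), and both held without any 1 library. The untreated libraries of the other lines all stood above those labelled TRIM24-KO. Acaca, the acetyl-CoA carboxylase, and Fasn were higher than in WT line 1 (0.21 and 0.26 on the log2 scale) and lower than in WT line 2 (-0.23 and -0.17), so they took opposite signs against the 2 references. The Fasn call against WT line 2 ended without any 1 of the 4 libraries, with RLE size factors (adjusted p = 0.106 by edgeR), with DESeq2 (0.0661), without a filter (0.107) and with only the groups compared (0.107). Lpin1 was higher than in WT line 2 (0.50 ± 0.14), a call that ended without WT replicate 1 (adjusted p = 0.127 by edgeR).

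With DOX, Abca1, Scap and Scd1 differed from both WT lines in the same direction as before. Abca1 was at 79.4 and 62.5 CPM in the line labelled TRIM24-KO against 9.21 and 9.08 CPM in WT line 1 (2.96 ± 0.14, adjusted p = 3.37e-10 by edgeR) and 2.90 and 3.80 CPM in WT line 2 (4.41 ± 0.17, adjusted p = 1.04e-11). Scap was higher by 0.68 ± 0.11 and 0.51 ± 0.10, and Scd1 was lower (-0.57 ± 0.11 and -0.62 ± 0.11). Dhcr7, lower before DOX, was now higher than in WT line 1, at 134 and 149.8 CPM against 82.1 and 93.4 CPM (0.69 ± 0.10, adjusted p = 4.79e-05 by edgeR), and overlapped WT line 2 at 121 and 139 CPM (0.12 ± 0.10, adjusted p = 0.341). Of the 7 mevalonate and 11 sterol-branch enzymes, 2 and 3 were higher and 0 and 1 lower than in WT line 1, and 2 and 2 were higher and 3 and 4 lower than in WT line 2. All genes tested gave 17.9% higher and 14.3% lower against WT line 1, and 24.7% and 22.1% against WT line 2. Hsd17b7 was lower than in both, at 12.3 and 12.8 CPM against 17.4 and 17.5 CPM (-0.48 ± 0.14) and 34.1 and 28.4 CPM (-1.32 ± 0.13); the call against WT line 1 ended without WT replicate 1 (adjusted p = 0.0556 by edgeR), WT replicate 2 (0.0567) or TRIM24-KO replicate 1 (0.0957). Abcg1, at 25.3 and 24.5 CPM, was higher than the 10.8 and 13.6 CPM of WT line 2 by 1.03 ± 0.18 (adjusted p = 0.000140 by edgeR). The other treated libraries had 35.7 and 30.6 CPM of Abcg1 in WT line 1, 12.4 and 9.32 CPM in the line labelled TRIM33-KO, 15.9 and 18.7 CPM in plain WT and 14.3 and 13.5 CPM in the line labelled DUXBL-KO. Lpin1 was higher than in both, at 48.3 and 52.9 CPM against 32.6 and 29.1 CPM in WT line 1 (0.71 ± 0.15) and 23.5 and 25.1 CPM in WT line 2 (1.05 ± 0.16), and so were Pmvk, whose calls ended without TRIM24-KO replicate 1, and Elovl6. Of the 6 genes of the 2-cell-like state, 2 were higher than in WT line 1 and 5 lower than in WT line 2 with DOX, with summed levels of 1227 and 1796 CPM against 1242 and 1515 CPM and 4848 and 3555 CPM; their part in these results was not tested.

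Over the list, the untreated line labelled TRIM24-KO had 6 members higher and 12 lower than WT line 1, and 9 higher and 20 lower than WT line 2. Among all genes 16.5% were higher and 17.5% lower than in WT line 1, and 22.8% higher and 25.3% lower than in WT line 2. With DOX the counts were 12 higher and 3 lower against WT line 1, where 17.9% and 14.3% of all genes passed, and 11 higher and 12 lower against WT line 2, where 24.7% and 22.1% passed. The members' median log2 difference was -0.10 and -0.23 without DOX, and 0.13 and -0.014 with it, beside all-gene medians of -0.02, -0.00065, 0.0020 and 0.0041. Against both references 4 members were higher (Pmvk, Scap, Npc1 and Abca1) and 9 lower (Fdps, Lss, Cyp51, Hsd17b7, Dhcr7, Srebf1, Insig1, Stard4 and Scd1) without DOX. With DOX 5 were higher (Pmvk, Scap, Abca1, Elovl6 and Lpin1) and 2 lower (Hsd17b7 and Scd1), while Scd2 was called in opposite directions, both of which ended without at least 1 library. Both sets of comparisons share the libraries labelled TRIM24-KO. Without DOX 8 of the 18 calls against WT line 1 and 20 of the 29 against WT line 2 held without any 1 library, and with DOX 8 of 15 and 17 of 23. The excess of lower over higher members against WT line 1 without DOX ended without WT replicate 1 (6 higher and 6 lower) or TRIM24-KO replicate 2 (6 and 6). Without the treated TRIM24-KO library rich in CT010467.1, 12 were higher and 3 lower than in WT line 1, and 10 and 9 against WT line 2. Of 8 primitive endoderm markers, 6 were higher in the line labelled TRIM24-KO in each of these 4 comparisons, and 1 was at 0 in both untreated WT pLV2 lines. Their summed level without DOX was 228 and 227 CPM against 137 and 122 CPM in WT line 1 and 135 and 181 CPM in WT line 2, mostly from Lama1, and 236 to 297 CPM in the untreated plain lines. Other marker lists moved as well. With DOX 5 of the 7 trophoblast markers tested were higher and 1 lower against each WT line, while without DOX 3 were higher and 2 lower than in WT line 1, and 3 and 1 against WT line 2. Of the 6 fibroblast markers tested 5 were lower and 1 higher than in WT line 2 without DOX, and 1 was lower and 3 higher than in WT line 1. The 6 neural markers summed to 36.5 and 37.8 CPM without DOX, below the 67.7 and 64.4 CPM of WT line 1 and the 107.8 and 87.3 CPM of WT line 2. Of the 8 pluripotency markers 4 were lower than in each WT line without DOX, and 2 and 3 higher. The part of these lists in the lipid results was not tested.

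**Figure D4:**
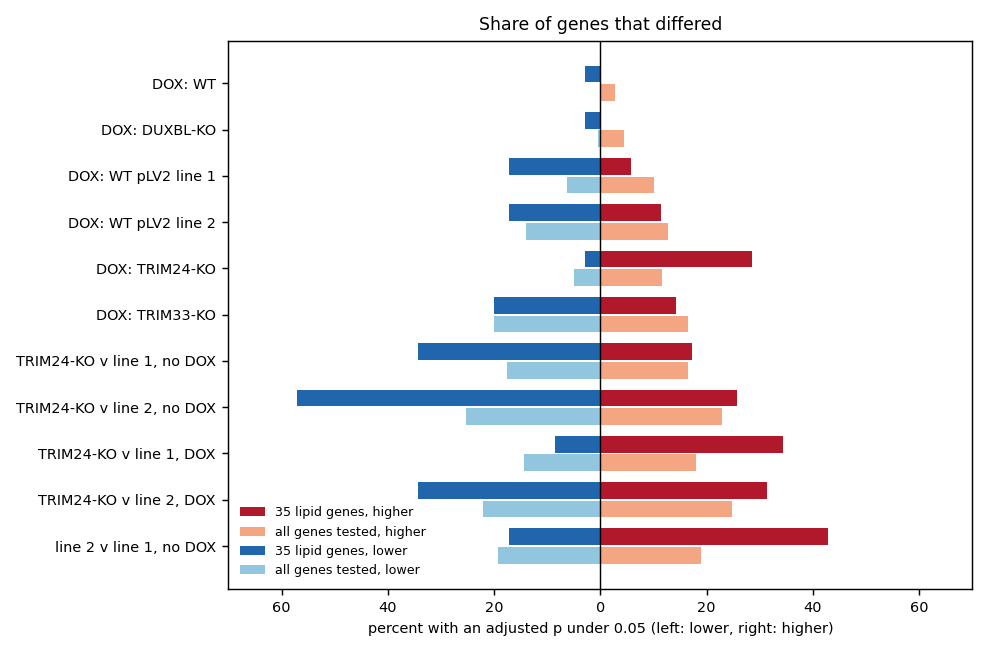
Percent of genes with an adjusted p under 0.05 (horizontal axis; right, higher; left, lower) in 11 comparisons, for the 35 members (dark bars) and for all genes tested (light bars). Under DOX the dark and light bars of WT line 2 and of the line labelled TRIM33-KO are close, and the longest dark bar to the left is that of the line labelled TRIM24-KO against WT line 2 without DOX, where 20 of 35 members were lower.

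The WT pLV2 lines differed from each other at 21 of 35 members before any DOX, 15 higher and 6 lower in line 2, where 18.9% and 19.3% of all genes passed. With 1 line per knockout, line and genotype cannot be told apart, and this comparison gives the size of differences between lines of the same label. Hsd17b7 was higher in line 2 by 1.22 ± 0.12 (adjusted p = 1.26e-06 by edgeR), Dhcr7 by 0.76 ± 0.10 (adjusted p = 1.75e-05), Insig2 by 0.79 ± 0.14 and Msmo1 by 0.66 ± 0.08. Abcg1 was lower (-1.25 ± 0.16, adjusted p = 1.06e-05 by edgeR), as was Nr1h2 (-0.62 ± 0.11). The members' median was 0.096, beside 0 over all genes. Of the 21 calls, 17 held without any 1 library and under the other alternatives run. Scd1, Insig1, Scap, Pmvk and Npc1 did not pass between the untreated WT lines, and each was called in the same direction against both of them in the untreated line labelled TRIM24-KO.

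A further list of 30 genes of sterol and lipid metabolism was counted in the same way, without the alternatives other than DESeq2 named here. With DOX, 0 passed by edgeR in either plain line (1 in each at an unadjusted p under 0.05; by DESeq2 0 rose and 0 fell in WT, and 0 and 0 in the line labelled DUXBL-KO). In the pLV2 lines 1 rose and 2 fell in WT line 1, 3 and 8 in WT line 2, 5 and 2 in the line labelled TRIM24-KO, and 3 and 9 in the line labelled TRIM33-KO. Over all genes tested 10.0% rose and 6.25% fell in WT line 1, 12.7% and 14.0% in WT line 2, 11.5% and 4.94% in the line labelled TRIM24-KO, and 16.5% and 20.1% in that labelled TRIM33-KO. By DESeq2, 1 rose and 1 fell in WT line 1, 1 and 3 in WT line 2, 2 and 1 in the line labelled TRIM24-KO, and 3 and 4 in that labelled TRIM33-KO. Over all genes DESeq2 gave 1486 rises and 616 falls of 19976 tested, 2135 and 1105 of 22771, 1674 and 639 of 20675, and 2986 and 1736 of 22073, in the same order. Dgat2, which makes triglyceride, rose from 3.43 and 2.38 to 6.70 and 7.19 CPM in WT line 1 (1.26 ± 0.23). In the untreated line labelled TRIM24-KO 4 were higher and 11 lower than in WT line 1, and 3 higher and 21 lower than in WT line 2; with DOX the counts were 4 and 10, and 2 and 14. The shares of all genes higher and lower were 16.5% and 17.5%, and 22.8% and 25.3%, without DOX, and 17.9% and 14.3%, and 24.7% and 22.1%, with it. DESeq2 called 3 higher and 6 lower than in WT line 1 with DOX, beside 2543 and 1963 of all 17879 genes it tested. Fads2, a desaturase of polyunsaturated fatty acids, was at 22.9 and 27.4 CPM in the untreated line labelled TRIM24-KO against 55.0 and 59.5 CPM in WT line 1 (-1.18 ± 0.09) and 95.9 and 93.3 CPM in WT line 2 (-1.91 ± 0.08). Me1, a malic enzyme that supplies NADPH, was lower than in WT line 1, at 15.9 and 17.2 against 39.7 and 41.9 CPM (-1.30 ± 0.09). Lipa, the lysosomal acid lipase, was lower than in WT line 2, at 2.40 and 1.80 against 10.9 and 10.7 CPM (-2.36 ± 0.17). These groups did not overlap. Between the untreated WT lines 15 of the 30 were higher and 1 lower in line 2, where 18.9% of all genes were higher and 19.3% lower. Interaction tests passed for Fads2 against WT line 1 (0.81 ± 0.13) and for Soat1, a sterol acyltransferase, against WT line 2 (0.51 ± 0.10), both toward a higher DOX response in the line labelled TRIM24-KO, and for no other gene of the 30 in these comparisons. DESeq2 called 1 of the 30 against WT line 1 and 0 against WT line 2.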

How the data were processed

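Gene read counts were used as deposited: per the submitters' processing notes, the tools included bcl2fastq 2.20.0, cutadapt 1.18 and STAR 2.7.6a with build mm10. The counting settings are not given in the sources used here. Libraries were directional, after rRNA depletion, with 75 base paired reads. The 35 members and all lists were chosen with earlier results of these data known. IDs were named from GENCODE M21. Plain (8) and pLV2 (16) libraries were fitted apart with edgeR 4.0.16 (R 4.3.3): TMM scaling, filterByExpr, 1 mean per group, glmQLFit and glmQLFTest, Benjamini-Hochberg adjustment over all genes tested, threshold 0.05. The biological coefficient of variation was 17.8% in the plain and 8.55% in the pLV2 set, with 4 and 8 residual degrees of freedom. CPM used effective library sizes. The fit was tested on simulated data. Alternatives were RLE size factors, DESeq2 1.42.0, no filter, a replicate block, only the groups compared, and each library left out; leaving libraries out of the interactions was added after the data were seen. Values of every library are given for members called in at least 4 DOX comparisons or with an absolute log2 difference of at least 1 past the threshold, and at most 4 genes per comparison are named from the further list.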

Additional observations from a re-analysis of the deposited data

Results flagged for a closer look

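The DOX response differed between lines in 4 results, by edgeR's interaction test. Dhcr7 responded more in the line labelled TRIM24-KO than in WT line 1 by 1.16 on the log2 scale, and than in WT line 2 by 1.35. Without DOX its level in that line was below both WT lines. With DOX it was above WT line 1 and overlapped WT line 2. Fdft1 responded more than in WT line 1 by 0.46, and Srebf1 by 0.58. These calls of Fdft1 and Srebf1 ended with RLE size factors and depended on single libraries, as given above. Neither gene passed against WT line 2. The 2 Dhcr7 results share the libraries labelled TRIM24-KO. They also rest on the treated library in which the rRNA gene CT010467.1 took 30.43% of gene counts; without it Dhcr7 was the 1 member that passed against WT line 1, and 1 member passed against WT line 2, also Dhcr7.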

How the results depend on the processing

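No called member reversed its direction under an alternative. Of the calls made, 140 were kept and 13 lost with RLE size factors, 132 and 21 with DESeq2, 138 and 15 without a filter, 127 and 22 with only the groups compared, and 454 and 174 over all left-out libraries; the causes were not tested. In plain WT 0 members passed with only the groups compared, where 1 of all 16931 genes did. The line labelled DUXBL-KO had 2 with DESeq2 and 3 without a filter. With only the groups compared WT line 1 had 14, where 2502 of all 16088 genes rose and 1755 fell, and WT line 2 had 4, where 1982 of 16512 rose and 743 fell; the line labelled TRIM24-KO had 7 with DESeq2 and 7 with only the groups compared. The interaction with WT line 1 gave 1 with RLE size factors; that with WT line 2 gave 2 with RLE size factors, 2 with DESeq2 and 4 without a filter, Abca1 among them each time. For the line labelled TRIM33-KO, 1 passed against WT line 1 with RLE size factors and 1 with DESeq2, and 1 against WT line 2 without a filter. Of the further list of 30 genes, DESeq2 called 4 against 11 by edgeR under DOX in WT line 2, 3 against 7 in the line labelled TRIM24-KO, 7 against 12 in that labelled TRIM33-KO, and 9 against 14 between the line labelled TRIM24-KO and WT line 1 with DOX.

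The median log2 difference of the members under DOX became, in WT line 1, -0.098 with RLE size factors, -0.0995 with DESeq2, -0.076 without a filter and -0.072 with only the groups compared. For the line labelled TRIM24-KO it became 0.105 with RLE size factors, 0.105 with DESeq2 and 0.088 without a filter. For that labelled TRIM33-KO it became -0.038 with RLE size factors, -0.041 with DESeq2, -0.149 without a filter and -0.014 with only the groups compared. For the line labelled TRIM24-KO against WT line 1 without DOX it became -0.067 with RLE size factors, -0.071 with DESeq2, -0.046 without a filter and -0.075 with only the groups compared, and with DOX 0.115 without a filter. Against WT line 2 with DOX it became -0.057 with RLE size factors and -0.058 with DESeq2.

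With 1 library left out, the lone library of its group is assumed to vary like the others. The number called under DOX then ran from 0 to 1 in plain WT, 0 to 1 in the line labelled DUXBL-KO, 2 to 3 in WT line 1, 3 to 10 in WT line 2, 6 to 8 in the line labelled TRIM24-KO and 7 to 9 in the line labelled TRIM33-KO. For the line labelled TRIM24-KO it ran from 12 to 14 against WT line 1 and 23 to 25 against WT line 2 without DOX, and from 10 to 15 and 19 to 23 with DOX. It ran from 17 to 22 between the WT lines, and from 1 to 2 and 1 to 3 for the interactions with WT line 1 and line 2. The medians under DOX ran from -0.00070 to 0.12, -0.0073 to 0.052, -0.11 to -0.055, -0.14 to 0.021, 0.080 to 0.19 and -0.12 to 0.017, in the same order of lines. For the line labelled TRIM24-KO they ran from -0.11 to -0.050 and -0.22 to -0.13 without DOX and from 0.097 to 0.21 and -0.023 to 0.050 with DOX, and between the WT lines from 0.12 to 0.21.

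The labels give replicate numbers and state no shared batch or culture behind them. The numbers were not treated as pairs because 1 of the 6 lines, WT pLV2 line 1, had a correlation under 0.1. That line was not in the fit of the plain lines, so it gives no reason to set shared variation aside there. The other lines show shared variation. Replicate 1 deviations of treated and untreated libraries correlated across genes at 0.58 in plain WT, 0.79 in the line labelled DUXBL-KO, 0.05 in WT line 1, 0.41 in WT line 2, 0.24 in the line labelled TRIM24-KO and 0.13 in the line labelled TRIM33-KO. With a replicate block 152 calls were kept and 1 lost, a rise under DOX in WT line 2. In the line labelled DUXBL-KO 5 members then passed under DOX. Dhcr7 (adjusted p = 0.00132 by edgeR), Acly (0.0195), Mvk (0.0476) and Fasn (0.0494) rose there beside the fall of Lpin1. The block gave 2 members in the interaction of the line labelled TRIM24-KO with WT line 2, where Abca1 (adjusted p = 0.0450 by edgeR) was lower. Among all genes the block gave 818 rises and 143 falls in plain WT and 1247 and 347 in the line labelled DUXBL-KO, beside 510 and 19 and 813 and 73 without it. Member counts ran from 29 to 22194 reads per library, and with 2 libraries a group, small differences may not have been detectable.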
